A study of Mus musculus with 24 samples.

Results

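The WAVE regulatory complex was followed in mouse heart through the messenger RNA of 6 of its genes: Cyfip2 and its paralogue Cyfip1, Nckap1, Wasf2, Abi1 and Brk1. The genes were picked by symbol, and all 6 were found among the 20961 genes of the deposited table. They were picked after strain differences in these data were known, Cyfip2 being the reason for the choice. Differences between strains are therefore described here and not tested for these 6 genes, whereas diet and sex were tested.

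The complex is an actin regulator with 5 subunits. In its resting state a CYFIP subunit (CYFIP1 or CYFIP2) and NCKAP1 hold the WAVE protein, an ABI protein and BRK1 in an inactive form. When the small GTPase RAC1 in its GTP-bound state binds the CYFIP subunit, the tail of WAVE is released and switches on the Arp2/3 complex, which starts new actin branches on existing filaments. CYFIP1 and CYFIP2 share one place in the complex, and CYFIP proteins also bind the RNA-binding protein FMRP. Actin branching of this kind is best known from the cell membrane and from contacts between cells.

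Bulk RNA was sequenced from hearts of C57BL/6J, a common laboratory strain, CAST/EiJ, inbred from wild castaneus mice, and NZO/HlLtJ, in which many loci together cause obesity. Females and males of each strain ate a diet of 10% fat with fiber (control) or 44% fat with fiber (high fat, high sugar) from 6 weeks of age, and hearts were taken at 15 weeks. All animals were labelled wild type with no treatment other than the diet. The 12 groups of strain, sex and diet held 2 libraries each, which gave 8 libraries per strain and 12 per diet or sex.

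Total counts lay between 30205073 and 52254058 per library, and 17203 of the 20961 genes, all 6 members among them, passed the filter on low counts and were tested. Summed markers of cardiomyocytes were of like size in the strains (53378 to 58520 CPM, counts scaled to a library total of 1e6, in C57BL/6J, 49980 to 61390 in CAST/EiJ and 49088 to 61696 in NZO/HlLtJ), and no marker of the list was at 0 in all libraries, so the labelled tissue was seen in the RNA. Skeletal muscle markers summed to 1094 to 3434 CPM in NZO/HlLtJ against 94.2 to 234 in C57BL/6J and 146 to 371 in CAST/EiJ. Only 4 of the 6 listed skeletal muscle genes were in the table. Which of them carried the sum, and from which cells, was not tested. Nothing in the labels says that libraries of 1 group are separate animals. The p-values then reflect only the scatter among these libraries, which may be technical.

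Cyfip2 (ENSMUSG00000020340) lies on the minus strand of chr11:46193850-46312859 in GRCm38. Brk1 (ENSMUSG00000033940) lies on the plus strand of chr6:113604772-113616951 and Wasf2 (ENSMUSG00000028868) on the plus strand of chr4:133130505-133199756. The libraries of C57BL/6J and CAST/EiJ did not overlap for these 3 genes (27.0% of all tested genes did the same), so their promoters are shown. Each sequence runs 5′ to 3′ from 250 bases before to 50 bases after a RefSeq gene start (GRCm38.p6, the C57BL/6J reference). The Cyfip2 window lies wholly inside the gene span given above, so it does not show the sequence before the 5′ end of that span. The RefSeq start used for Wasf2 also lies inside its span. Capitals mark the GC box letters GGGCGG, searched on both strands:
Cyfip2, chr11:46312309-46312608, minus strand: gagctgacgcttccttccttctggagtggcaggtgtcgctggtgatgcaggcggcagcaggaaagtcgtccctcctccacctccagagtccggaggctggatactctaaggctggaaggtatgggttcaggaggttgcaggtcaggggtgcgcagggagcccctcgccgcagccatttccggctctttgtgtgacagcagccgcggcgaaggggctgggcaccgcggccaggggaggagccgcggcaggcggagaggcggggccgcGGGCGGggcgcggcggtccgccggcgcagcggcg
Brk1, chr6:113604522-113604821, plus strand: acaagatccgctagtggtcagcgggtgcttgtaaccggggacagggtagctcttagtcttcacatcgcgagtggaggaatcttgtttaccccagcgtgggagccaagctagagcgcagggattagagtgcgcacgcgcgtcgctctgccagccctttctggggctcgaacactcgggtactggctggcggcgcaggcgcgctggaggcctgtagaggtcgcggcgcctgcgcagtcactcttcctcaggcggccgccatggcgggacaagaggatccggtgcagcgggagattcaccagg
Wasf2, chr4:133130383-133130682, plus strand: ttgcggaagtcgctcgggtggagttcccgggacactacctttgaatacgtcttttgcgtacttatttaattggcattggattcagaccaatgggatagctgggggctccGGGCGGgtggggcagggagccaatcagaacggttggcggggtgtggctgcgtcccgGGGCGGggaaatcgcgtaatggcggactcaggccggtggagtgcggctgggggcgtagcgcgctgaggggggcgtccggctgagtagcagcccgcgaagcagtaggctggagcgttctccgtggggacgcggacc
The Cyfip2 promoter held 1 GGGCGG, that of Wasf2 held 2 and that of Brk1 held 0. The motif was in 35.7% of 32841 RefSeq promoters of this length. The TATA box letters TATAAA, found in 13.6% of those promoters on either strand, were in none of the 3 windows. All 3 were rich in CpG: 29 in Cyfip2 (70.7% G or C), 27 in Brk1 (64.0%) and 29 in Wasf2 (64.3%), against a median of 7 CpG and 52.7% over all promoters. Of the 6 genes 4 had an entry, the fourth being Abi1, whose 2 starts had 10 and 12 CpG, and Cyfip1 and Nckap1 had none.

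Of the 6 genes, Cyfip2 had the widest strain differences. In C57BL/6J its level had a lowest value of 230 CPM, a median of 245 and a highest of 273 (250 ± 14.7, SD, n = 8). In NZO/HlLtJ the lowest was 12.3, the median 15.6 and the highest 16.9 CPM (15.2 ± 1.66, SD, n = 8). In CAST/EiJ the lowest was 1.34, the median 1.80 and the highest 2.81 CPM (1.90 ± 0.478, SD, n = 8). All C57BL/6J libraries were high and all CAST/EiJ libraries low, and no 2 strains overlapped. Raw support was 7350 to 11546 counts per library in C57BL/6J, 441 to 684 in NZO/HlLtJ and 55 to 126 in CAST/EiJ, so the gene was detected in every library.

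The fitted log2 difference of Cyfip2 was -7.06 ± 0.09 (SE) in CAST/EiJ against C57BL/6J, a level 133 times lower with a 95% interval of -7.25 to -6.87 on the log2 scale. Against C57BL/6J the difference in NZO/HlLtJ was -4.05 ± 0.07 (16.5 times lower, interval -4.20 to -3.89). NZO/HlLtJ lay above CAST/EiJ by 3.01 ± 0.09 (8.07 times higher, interval 2.83 to 3.19). These 3 differences share libraries. By size they stood at rank 93, 152 and 690 of 17203 genes, and the share of genes with a difference of at least 7, 4 and 3 in the same contrasts was 0.575%, 0.901% and 4.05%. Because the gene was chosen on this pattern, nothing is read from these ranks. In bulk heart RNA, fewer cells of a type and less RNA per cell cannot be told apart. Whether strain genomes were used in counting is not given. How sequence differences between strains affected the Cyfip2 counts was not tested.

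**Figure D1:**
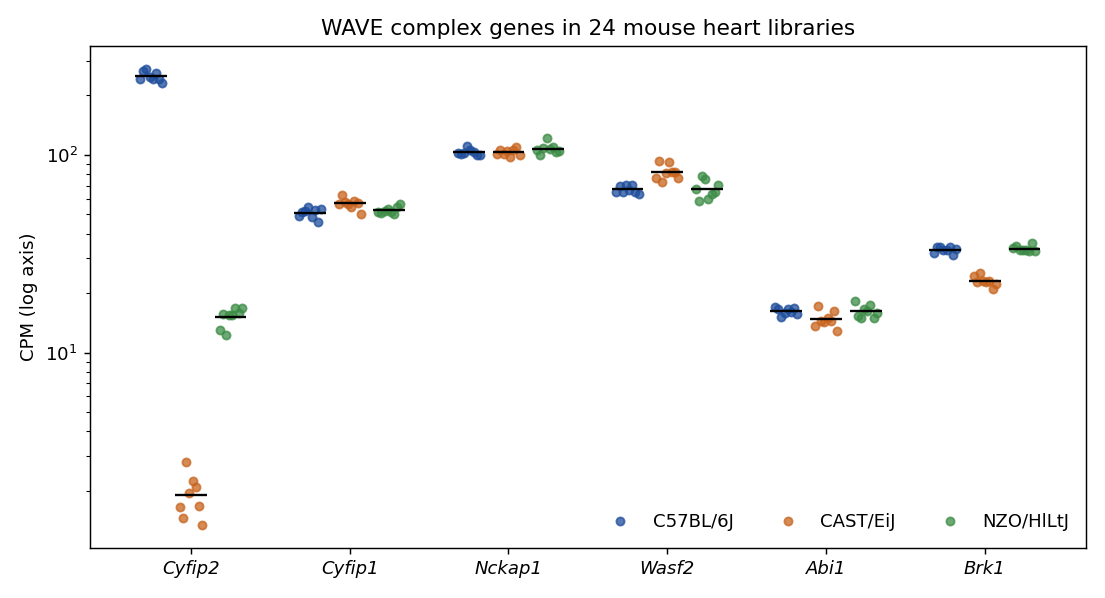
Level of each of the 6 genes (CPM, log axis) in 24 libraries, coloured by strain, with a black bar at the mean of 8 libraries. Cyfip2 lies at 230 to 273 CPM in C57BL/6J, 12.3 to 16.9 in NZO/HlLtJ and 1.34 to 2.81 in CAST/EiJ, whereas the strains lie close together for the other 5 genes.

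Sample identifiers in the labels fall into 3 numerical ranges, of which the first holds no NZO/HlLtJ library. Within the ranges the CAST/EiJ minus C57BL/6J difference of mean log2 Cyfip2 was -7.08, -6.86 and -7.30. The NZO/HlLtJ minus C57BL/6J difference was -4.16 and -3.86 in the ranges that hold both. The ranges that hold NZO/HlLtJ are not matched for sex and diet: in the one with the smaller CAST/EiJ gap C57BL/6J has only males and CAST/EiJ only 10% fat, and in the other C57BL/6J has only females and CAST/EiJ only 44% fat. These gaps therefore mix strain with sex and diet. Marker lists of other cells also differed between strains: smooth muscle and pericyte markers summed to 499 to 628 CPM in CAST/EiJ against 748 to 934 in C57BL/6J and 706 to 833 in NZO/HlLtJ, and fibroblast markers to 991 to 1292 in NZO/HlLtJ against 744 to 796 in C57BL/6J. Neuron and Schwann cell markers summed to 9.74 to 13.7 CPM in NZO/HlLtJ, 6.44 to 9.69 in C57BL/6J and 4.19 to 7.80 in CAST/EiJ. T and NK cell markers had summed medians of 1.90 CPM in C57BL/6J, 0.883 in CAST/EiJ and 2.59 in NZO/HlLtJ, with at most 3.80 CPM in any library. Erythroid markers had medians of 5044 CPM in C57BL/6J, 11632 in CAST/EiJ and 8412 in NZO/HlLtJ, with ranges that overlapped. The part of these cells in the Cyfip2 difference was not tested.

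Cyfip1 (ENSMUSG00000030447, plus strand of chr7:55841745-55932602) encodes the other CYFIP subunit and was at a like level in the 3 strains. Its lowest, median and highest values were 45.9, 51.8 and 54.4 CPM in C57BL/6J. In CAST/EiJ they were 50.2, 56.9 and 62.8 CPM, and in NZO/HlLtJ 49.99, 51.6 and 56.3 CPM. Each pair of strains overlapped. The log2 difference was 0.16 ± 0.04 (SE) in CAST/EiJ and 0.04 ± 0.04 in NZO/HlLtJ, both against C57BL/6J. Cyfip1 counts were not whole in any of the 24 libraries, and the gene shares 1316 exon bases with Nipa2 on the opposite strand, so its level carries the uncertainty of how such reads were divided.

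With the CPM scaled to kilobases of merged exons, Cyfip2 made up 89.2% ± 0.698 (SD, n = 8) of the summed Cyfip1 and Cyfip2 level in C57BL/6J. The share was 32.7% ± 2.41 in NZO/HlLtJ and 5.31% ± 1.24 in CAST/EiJ. The libraries lay at 87.9 to 89.9%, 28.5 to 36.1% and 3.74 to 7.55%, with no overlap. So Cyfip2 was the larger of the 2 paralogues in C57BL/6J and the smaller in the other strains. Scaled instead to the longest protein-coding transcript, the shares were 82.6%, 21.8% and 3.13%, which keeps that order. The summed level of both genes was 39.5 ± 2.14 CPM per kilobase in C57BL/6J, 6.53 ± 0.328 in NZO/HlLtJ and 5.02 ± 0.309 in CAST/EiJ, and the higher Cyfip1 of CAST/EiJ (by 5.87 CPM over C57BL/6J) was small beside the 248 CPM lower Cyfip2.

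Nckap1 (ENSMUSG00000027002, minus strand of chr2:80500512-80581380) encodes the large scaffold partner of CYFIP. It lay at 99.8, 103 and 111 CPM (lowest, median, highest) in C57BL/6J, at 98.0, 103 and 109 CPM in CAST/EiJ and at 99.5, 107 and 121 CPM in NZO/HlLtJ. The strains overlapped throughout. The log2 difference against C57BL/6J was 0.00 ± 0.03 (SE, 95% interval -0.07 to 0.06) in CAST/EiJ and 0.06 ± 0.03 (-0.01 to 0.12) in NZO/HlLtJ.

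Wasf2 encodes WAVE2, the subunit whose tail activates Arp2/3. Its values were 63.2, 65.9 and 70.6 CPM in C57BL/6J, 72.5, 81.3 and 92.8 CPM in CAST/EiJ and 58.8, 65.9 and 78.7 CPM in NZO/HlLtJ. CAST/EiJ libraries were all above those of C57BL/6J and overlapped those of NZO/HlLtJ. The log2 difference of CAST/EiJ against C57BL/6J was 0.29 ± 0.05 (SE), and that of NZO/HlLtJ 0.01 ± 0.05.

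Abi1 (ENSMUSG00000058835, minus strand of chr2:22940073-23040241) encodes an adaptor that holds WAVE. It lay at 15.2, 16.3 and 16.9 CPM in C57BL/6J, 12.8, 14.5 and 17.2 in CAST/EiJ and 14.9, 16.0 and 18.2 in NZO/HlLtJ, with overlap between all strains. The log2 difference was -0.14 ± 0.05 (SE) in CAST/EiJ and -0.01 ± 0.05 in NZO/HlLtJ. Abi1 shares 194 exon bases with Pdss1 on the opposite strand, and its counts were not whole in 2 libraries.

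Brk1 encodes the smallest subunit. Its values were 31.0, 33.3 and 34.4 CPM in C57BL/6J, 20.9, 22.9 and 25.2 CPM in CAST/EiJ and 32.6, 33.0 and 36.0 CPM in NZO/HlLtJ. All CAST/EiJ libraries were below all libraries of the other strains, which overlapped each other. The log2 difference was -0.53 ± 0.04 (SE) in CAST/EiJ against C57BL/6J (1.44 times lower) and 0.02 ± 0.04 in NZO/HlLtJ. NZO/HlLtJ exceeded CAST/EiJ by 0.54 ± 0.04. Counted over the members, 3 of 6 did not overlap between CAST/EiJ and C57BL/6J, beside 27.0% of tested genes. The count was 1 of 6 in NZO/HlLtJ against C57BL/6J (12.2% of tested genes) and 2 of 6 in NZO/HlLtJ against CAST/EiJ (26.8%).

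Levels per kilobase put the subunits of one strain on a common scale. In C57BL/6J the order was Cyfip2 (35.2 ± 2.07 CPM per kilobase, SD), Brk1 (30.3 ± 1.11), Nckap1 (20.8 ± 0.731), Wasf2 (10.7 ± 0.451), Cyfip1 (4.26 ± 0.241) and Abi1 (4.02 ± 0.153). Cyfip1 and Abi1 did not differ beyond their spread there. In CAST/EiJ Brk1 (21.0 ± 1.17) and Nckap1 (20.8 ± 0.749) were within their spread of each other, followed by Wasf2 (13.1 ± 1.16), Cyfip1 (4.75 ± 0.294) and Abi1 (3.66 ± 0.350), with Cyfip2 last at 0.267 ± 0.0674. In NZO/HlLtJ Cyfip2 was also last, at 2.14 ± 0.234, below Abi1 (4.01 ± 0.297) and Cyfip1 (4.39 ± 0.174). Scaled to coding transcripts, Cyfip1 lay higher (7.90, 8.82 and 8.14 CPM per kilobase in C57BL/6J, CAST/EiJ and NZO/HlLtJ) and the order was kept but for CAST/EiJ, where Nckap1 (22.5) came before Brk1 (21.0).

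**Figure D2:**
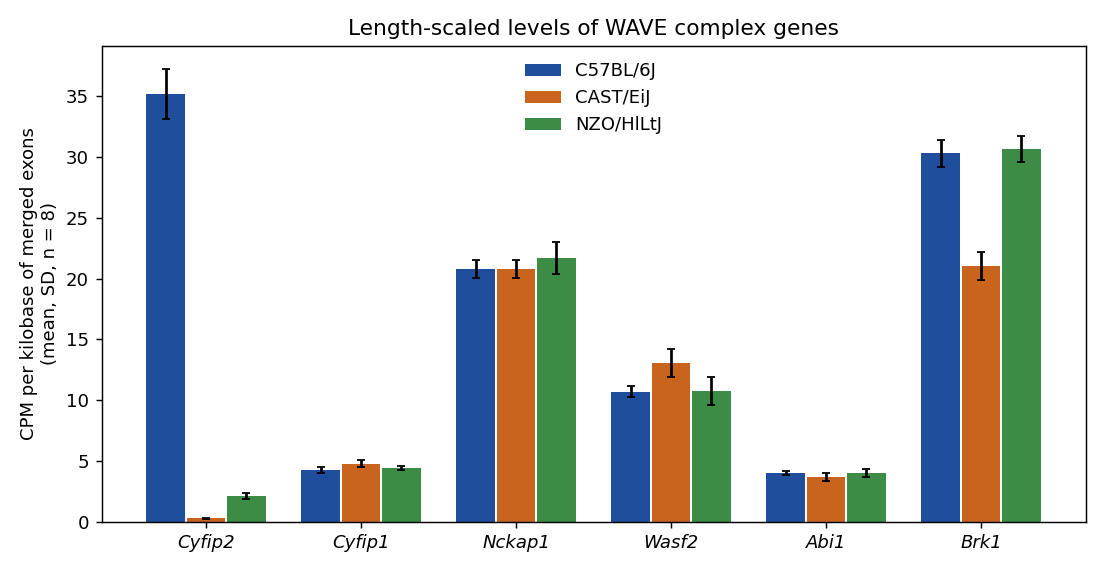
Mean level of each gene per kilobase of merged exons in the 3 strains, with SD over 8 libraries as error bars. Cyfip2 has the highest bar in C57BL/6J (35.2) and the lowest in NZO/HlLtJ (2.14) and CAST/EiJ (0.267), whereas Nckap1 is at 20.8 to 21.7 in all strains.

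No member passed the test for diet. Over the 6 strain and sex pairs, the log2 difference of 44% against 10% fat was -0.18 ± 0.07 (SE, 95% interval -0.32 to -0.04) for Cyfip2, with an adjusted p of 0.418 in edgeR's quasi-likelihood test over all 17203 genes. It was 0.06 ± 0.03 for Nckap1 (adjusted p = 0.466), 0.05 ± 0.04 for Wasf2 (0.771), 0.00 ± 0.03 for Cyfip1 (0.9999), -0.04 ± 0.03 for Brk1 (0.726) and 0.03 ± 0.04 for Abi1 (0.891). So 0 of 6 members passed beside 0.157% of tested genes, and the widest of the 6 intervals, that of Cyfip2, ran from 0.803 to 0.974 as a fold.

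Among C57BL/6J females Cyfip2 was at 241 and 242 CPM at 10% fat and at 266 and 230 CPM at 44% fat. C57BL/6J males were at 273 and 260 CPM, then at 247 and 241 CPM. In CAST/EiJ females the levels were 1.65 and 2.24 CPM at 10% fat and 1.45 and 1.67 CPM at 44% fat, and in males 2.81 and 2.08, then 1.94 and 1.34 CPM. In NZO/HlLtJ females they were 13.0 and 15.7, then 15.5 and 16.8 CPM, and in males 15.8 and 16.9, then 12.3 and 15.4 CPM. Over both sexes the diets overlapped in each strain, as they did among the females. In the males of each strain both libraries at 44% fat lay below both at 10% fat, a pattern that 0.837% of tested genes shared. It was seen after the values were known, and the difference of the diet effect between sexes was not tested. NZO/HlLtJ males at 44% fat and at 10% fat fall in different identifier ranges, so diet and range cannot be told apart among them. Among NZO/HlLtJ females the diets are split by range the other way round.

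By strain, the diet difference of Cyfip2 was -0.04 ± 0.09 (SE) in C57BL/6J and -0.04 ± 0.10 in NZO/HlLtJ (adjusted p = 0.995 and 0.952 in edgeR's test). The CAST/EiJ diet difference of Cyfip2 was -0.45 ± 0.15 (95% interval -0.75 to -0.14, adjusted p = 0.624, beside 0% of genes called). Its difference from that of C57BL/6J was -0.40 ± 0.17 (adjusted p = 0.745) and from that of NZO/HlLtJ, as NZO/HlLtJ minus CAST/EiJ, 0.41 ± 0.18 (adjusted p = 0.973). The CAST/EiJ library with the highest Cyfip2, a male at 10% fat with 2.81 CPM, stood out in several marker lists. Its summed white adipocyte markers were the highest of its strain, 75.5 CPM against at most 21.6 in the other 7. It was also highest of its strain for macrophage (126 CPM) and for T and NK cell markers (1.29). The same held for B and plasma cell (18.0) and for neuron and Schwann cell markers (7.80). A link of any of these lists with Cyfip2 was not tested. Without that library the difference was -0.32 (adjusted p = 0.935).

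**Figure D3:**
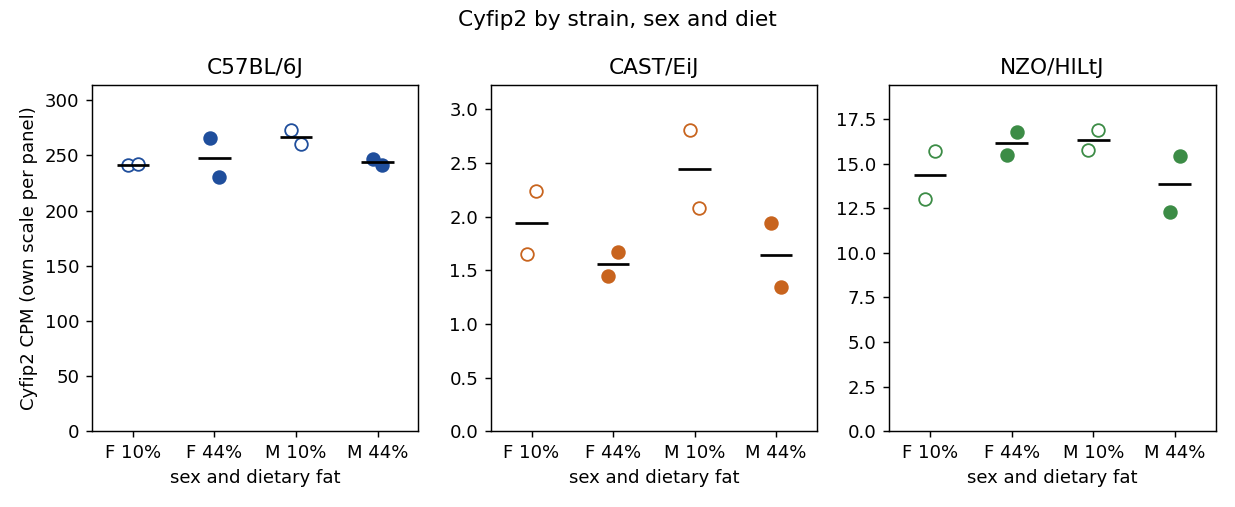
Cyfip2 level (CPM, own linear scale from 0 in each panel) in the 2 libraries of each sex and diet group (F female, M male; open circles 10% fat, filled 44% fat), bar at the mean. Over both sexes the diets overlap in each strain, while among males both 44% fat libraries lie below both 10% fat ones. In NZO/HlLtJ males the diets also differ in identifier range. The scales differ from a top near 273 in C57BL/6J to 2.81 in CAST/EiJ.

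The log2 ratio of Cyfip2 to Cyfip1 was 2.30 ± 0.10 (SD, n = 8) in C57BL/6J, -1.80 ± 0.16 in NZO/HlLtJ and -4.94 ± 0.35 in CAST/EiJ. Across diets it differed by -0.18, with an exact permutation p of 0.0559 (two-sided, 46656 arrangements within strain and sex). Adjusted over the 8 ratio tests made, that p was 0.444. On the variance-stabilized values the diet difference was -0.08 (exact permutation p = 0.106, two-sided). With each of 24 libraries left out in turn, the result stayed the same in 18 refits. In the other 6 the unadjusted exact p fell under 0.05. Those 6 are listed only because they crossed that line. The refits share libraries and their p was not adjusted, so nothing is concluded from them. The unadjusted exact p was 0.0166 without 1 NZO/HlLtJ female at 10% fat, 0.0323 without 1 C57BL/6J female at 44% fat and 0.0334 without 1 NZO/HlLtJ male at 44% fat. The value was 0.0397 without 1 NZO/HlLtJ female at 44% fat, 0.0439 without 1 CAST/EiJ female at 10% fat and 0.0442 without 1 C57BL/6J male at 44% fat. Within a strain only 36 arrangements exist and the smallest possible p is 0.0556. The diet difference of the ratio was -0.10 in C57BL/6J (exact p = 0.222), -0.43 in CAST/EiJ (0.111) and 0.01 in NZO/HlLtJ (0.944). The sex difference of the ratio was 0.05 (exact p = 0.552).

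No member passed the test for sex either. Wasf2, whose sex difference gave the smallest adjusted p when compared between strains, is given in full. In NZO/HlLtJ its females lay at 66.9, 58.8, 59.9 and 63.6 CPM and males at 64.9, 70.7, 78.7 and 75.7 CPM. The sexes overlapped in 1 library each. The log2 difference of males against females was 0.22 ± 0.07 (adjusted p = 0.444), and it differed from that of CAST/EiJ by 0.35 ± 0.09 (SE, adjusted p = 0.321, the smallest adjusted p of all 84 tests). Abi1 was lower in males by 0.10 ± 0.04 over all strains (log2 difference -0.10, adjusted p = 0.438, the smallest for sex outside the interactions). Of the 84 tests of the 6 genes in 14 diet, sex and interaction contrasts, 0 passed and 9 (10.7%) had an unadjusted p under 0.05, beside 6.71% of the tests of all genes in these contrasts. The share of all tested genes that passed was 0.372% for sex over all strains, 0.145%, 0.0872% and 0.134% for sex in C57BL/6J, CAST/EiJ and NZO/HlLtJ, and 0.0407%, 0% and 0% for diet in these strains. It was 0.00581% for the difference of the diet effect between NZO/HlLtJ and C57BL/6J and 0% for the other 5 interactions.

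Between libraries of one group, the 6 genes varied most for Cyfip2 (SD of log2 values 0.17) and least for Nckap1 (0.05). Over the 8 libraries of a strain, the coefficient of variation of Cyfip2 was 25.2% in CAST/EiJ, 10.9% in NZO/HlLtJ and 5.87% in C57BL/6J. In CAST/EiJ the gene rested on 55 to 126 counts per library. With group means removed, the highest correlation between 2 members over the 24 libraries was that of Abi1 and Wasf2 (r = 0.67), followed by Abi1 and Nckap1 (0.53). Cyfip2 and Cyfip1 had r = 0.11. The libraries share their processing, so these are descriptions.

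Genes around the complex were read next, as 59 genes in 6 lists, all of which were tested against the strains. These lists, like the members, were drawn up with earlier results known. The genes named from them were mostly those of smallest adjusted p, so their p-values are descriptions and no independent support. Between CAST/EiJ and C57BL/6J, 19 rose and 17 fell, which is 61.0% of the genes beside 58.8% of all genes. The median log2 difference was -0.03. Between NZO/HlLtJ and C57BL/6J, 11 rose and 5 fell (27.1% beside 35.5%), counts that ran from 6 to 12 and from 3 to 6 with single libraries left out. NZO/HlLtJ exceeded CAST/EiJ in 18 and was below it in 16 (57.6% beside 60.3%). Diet and sex called 0 of 59 in edgeR's test (1 and 3 at an unadjusted p under 0.05, beside 8.81% and 8.95% of all genes).

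Of the 5 paralogues of WAVE subunits, 2 passed between CAST/EiJ and C57BL/6J, beside 58.8% of all genes. Wasf3, a WAVE protein, was at 1.44 ± 0.259 CPM in C57BL/6J, 0.260 ± 0.101 in CAST/EiJ and 1.42 ± 0.223 in NZO/HlLtJ. It fell in CAST/EiJ by 2.48 on the log2 scale (adjusted p = 3.32e-09). Abi2 rose by 0.31 in CAST/EiJ and by 0.23 in NZO/HlLtJ (adjusted p = 1.54e-05 and 8.68e-04), from 17.4 to 21.6 and 20.4 CPM. Wasf1 was higher in NZO/HlLtJ than in CAST/EiJ by 1.02 (adjusted p = 0.00193), at 0.821 and 0.401 CPM. Nckap1l and Abi3 did not pass in any strain contrast.

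Of the Rac switch and WAVE binders, 8 of 22 rose and 6 fell in CAST/EiJ against C57BL/6J, and 3 rose and 0 fell in NZO/HlLtJ. Over all genes 58.8% and 35.5% passed in these contrasts. Raph1, which encodes the actin-binding protein lamellipodin, was at 132 CPM in C57BL/6J, 269 in CAST/EiJ and 147 in NZO/HlLtJ. Its log2 difference was 1.02 in CAST/EiJ (adjusted p = 6.79e-13) and 0.15 in NZO/HlLtJ (0.0153). Prex2, a Rac exchange factor, was higher by 0.31 in CAST/EiJ and by 0.48 in NZO/HlLtJ (adjusted p = 3.11e-05 and 4.22e-07). Its relative Prex1 was higher by 0.39 in CAST/EiJ (adjusted p = 1.04e-04), and Fam49a, which binds active RAC1, by 0.36 in NZO/HlLtJ (0.0310). NZO/HlLtJ lay below CAST/EiJ in Nhsl1 by 0.65 and above it in Tiam2 by 0.52 (adjusted p = 4.50e-05 and 9.12e-05).

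The Arp2/3 complex, which WAVE switches on, had 3 of 10 genes higher and 4 lower in CAST/EiJ, and 2 higher and 0 lower in NZO/HlLtJ, against C57BL/6J. The shares of all genes that passed there were 58.8% and 35.5%. Arpc1a rose by 0.32 in CAST/EiJ (35.4 to 44.1 CPM, adjusted p = 7.18e-07), and Arpc1b by 0.29 there and by 0.31 in NZO/HlLtJ (1.46e-05 and 2.05e-05). Arpc5 fell in CAST/EiJ by 0.20 and Arpc2 by 0.12 (adjusted p = 3.68e-04 and 0.00390). NZO/HlLtJ lay above CAST/EiJ in Actr3b by 0.41 (adjusted p = 2.31e-05).

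Other activators of Arp2/3 had 5 of 10 genes higher and 1 lower in CAST/EiJ (beside 58.8% of all genes called), and 3 and 1 in NZO/HlLtJ (35.5%). Whamm, a membrane-bound activator, rose by 0.38 in CAST/EiJ and 0.55 in NZO/HlLtJ (adjusted p = 3.75e-05 and 1.19e-06). Wipf2 and Hcls1 were higher by 0.27 and 0.29 in CAST/EiJ (adjusted p = 4.25e-04 and 0.00442). In NZO/HlLtJ Cttn (cortactin) rose by 0.13 and Wash1 fell by 0.25 (adjusted p = 0.00475 and 4.26e-04). Of the inhibitors and branch disassembly genes, 2 of 8 rose and 2 fell in CAST/EiJ, and 1 rose and 3 fell in NZO/HlLtJ, beside the same shares of all genes. Arpin, an Arp2/3 inhibitor, fell in CAST/EiJ by 0.65 (11.5 to 7.29 CPM, adjusted p = 3.51e-08). Coro2b, a coronin, rose by 0.76 in CAST/EiJ and fell by 0.28 in NZO/HlLtJ (adjusted p = 3.30e-06 and 0.0339). Coro1a fell by 0.53 in NZO/HlLtJ (adjusted p = 0.00712), and Gmfb, a branch-removal factor, rose by 0.23 in CAST/EiJ (2.07e-04).

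Partners of CYFIP in RNA binding had 0 of 4 genes higher and 3 lower in CAST/EiJ (58.8% of all genes called), and 1 and 1 in NZO/HlLtJ (35.5%). Fxr2, a relative of FMRP, was at 89.8, 74.9 and 64.1 CPM in C57BL/6J, CAST/EiJ and NZO/HlLtJ, and fell by 0.26 and 0.49 (adjusted p = 7.93e-06 and 7.11e-09). Eif4e, which binds the messenger RNA cap, was lower by 0.13 in CAST/EiJ and higher by 0.11 in NZO/HlLtJ (adjusted p = 0.00705 and 0.0434). Fmr1, which encodes FMRP, was lower by 0.16 in CAST/EiJ (adjusted p = 0.0284).

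**Figure D4:**
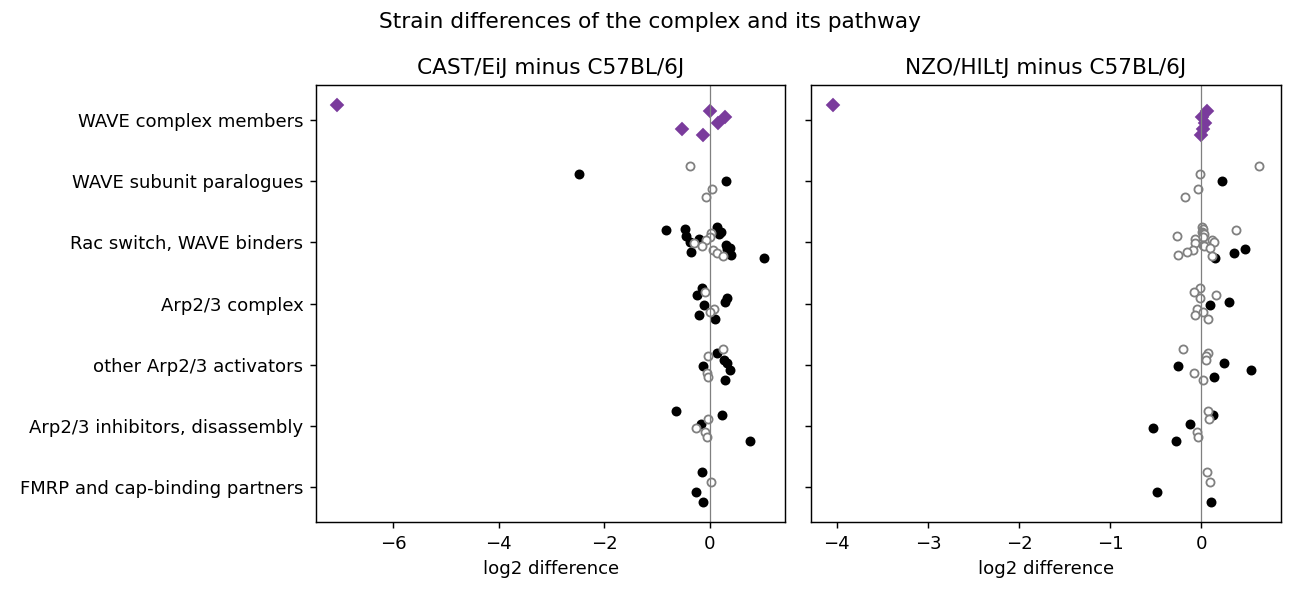
Log2 difference of CAST/EiJ (left) and NZO/HlLtJ (right) against C57BL/6J for the 6 members (diamonds, described without a test) and 59 pathway genes (circles, filled where the adjusted p was under 0.05). Cyfip2 lies at -7.06 and -4.05, and Wasf3 at -2.48 on the left is the lowest pathway gene.

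At the Cyfip2 locus, Fndc9 lies inside the gene on the opposite strand, in GRCm38 chr11:46235531-46239872, with no shared exon base. Its counts were 20 to 50 per C57BL/6J library, 0 to 6 per NZO/HlLtJ library and 0 to 1 per CAST/EiJ library, so Fndc9 was low wherever Cyfip2 was low. Its mean level was 0.792 CPM in C57BL/6J, 0.0585 in NZO/HlLtJ and 0.0126 in CAST/EiJ. Fndc9 passed the filter on low counts only through C57BL/6J, so a lower call in the other strains was built in and no p is given. Summed over a strain, Fndc9 counts were 0.322%, 0.403% and 0.647% of those of Cyfip2 in C57BL/6J, NZO/HlLtJ and CAST/EiJ. The counting of strand is not given in the sources used here, so reads of Cyfip2 introns and reads of Fndc9 cannot be told apart.

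Of 14 other tested genes within 500 kb of Cyfip2, 3 rose and 10 fell in CAST/EiJ against C57BL/6J (58.8% of all genes called), and 0 rose and 6 fell in NZO/HlLtJ (35.5%). Fndc9 is counted as lower in both. The nearest expressed ones were read by distance. Gm12167, a predicted gene 29428 bases away, was at 3.81 CPM in C57BL/6J, 0.183 in NZO/HlLtJ and 0 in all 8 CAST/EiJ libraries, which is at least 49.9-fold lower in CAST/EiJ if 3 counts per library are taken as the limit. Adam19, a metalloprotease gene 46507 bases away, went in opposite directions: 81.1 CPM in C57BL/6J, 127 in CAST/EiJ (log2 difference 0.64, adjusted p = 3.38e-04) and 40.4 in NZO/HlLtJ (-1.003, 1.62e-05). Med7, 124066 bases away, was at 8.45, 7.52 and 8.41 CPM and did not pass (adjusted p = 0.104 and 0.969). Thg1l, 238356 bases away, was lower in CAST/EiJ by 0.28 (adjusted p = 0.0147). The region thus held genes lower in both strains beside genes that were not.

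**Figure D5:**
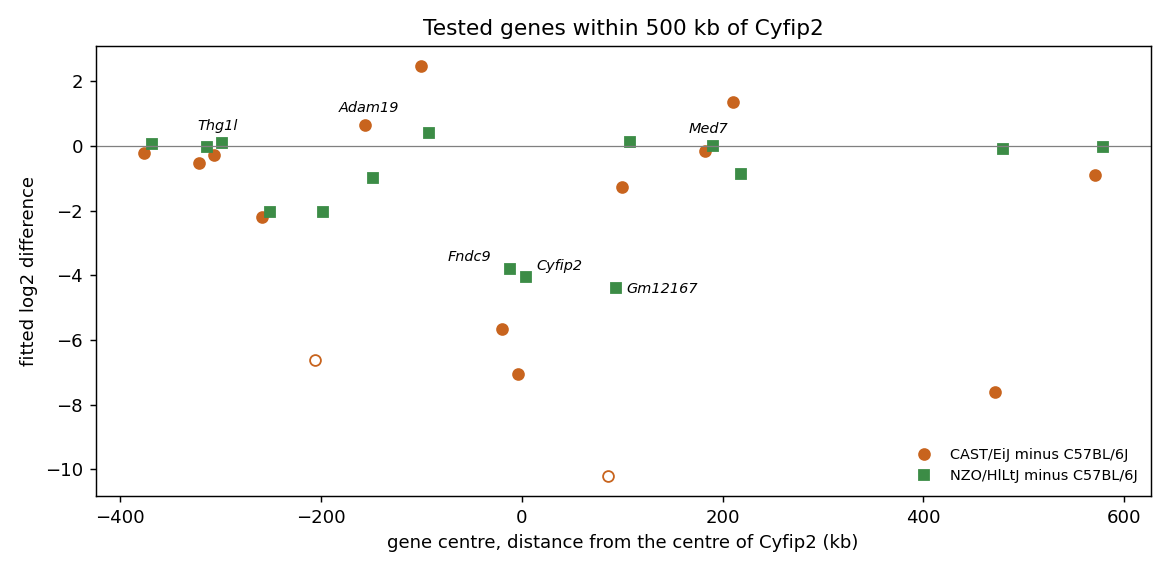
Fitted log2 difference of each tested gene within 500 kb of Cyfip2 against the distance of its centre from that of Cyfip2 (kb), for CAST/EiJ (circles) and NZO/HlLtJ (squares) against C57BL/6J; open symbols are genes with 0 counts in all CAST/EiJ libraries, whose fitted value is no bound. Fndc9, Cyfip2 and Gm12167 are low in both strains, and Med7 is near 0.

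Genes with a strain pattern most like that of Cyfip2 were ranked by Pearson r of log2 levels over the 12 group means, which share strains and libraries, among 12039 genes of at least 1 CPM. The highest were H2-K1 (r = 0.996), H2-Eb1 (0.992), H2-Q6 (0.991), Klhl32 (0.991) and Capza1 (0.989). The H2 genes have near-identical copies and differ in sequence between strains, so their values are uncertain. Capza1, a subunit of the actin capping protein, lay at 43.1, 29.2 and 21.3 CPM in C57BL/6J, NZO/HlLtJ and CAST/EiJ. The lowest r were those of Prom1 (-0.991), Eno2 (-0.990) and Fsd2 (-0.987). In all, 114 genes had r of at least 0.95, so this strain order is not particular to Cyfip2. Within groups, over 24 libraries, the highest were Cmklr1 (r = 0.82), Mical2 (0.82), Ccdc22 (0.81), Dhx32 (0.78) and Prosc (0.77). Mical2 encodes an actin-oxidising enzyme, and Ccdc22 shares 86.3% of its exon bases with another annotated gene.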

How the data were processed

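For 24 libraries the authors deposited expected counts per gene, of which 19.4% were not whole (tolerance 1e-06), and variance-stabilized values on a scale like log2. The submitters' processing notes name GRCm38 and DESeq2. What is not given in the sources used here is the aligner, the counter, its use of strand, the annotation release and whether strain genomes were used. How sequence differences between strains affected the counts was not tested. Per the labels' protocols, libraries were made from polyadenylated RNA.

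Expected counts were rounded and fitted with edgeR 4.0.16 (R 4.3.3). Genes were kept by filterByExpr (at least 10 counts, total of at least 15, 17203 kept, 3758 removed), scaled by TMM (factors 0.954 to 1.06) and fitted with 1 mean per group, robust quasi-likelihood tests and Benjamini-Hochberg adjustment at 0.05. The common coefficient of variation was 0.127. CPM are counts per TMM-scaled library total, times 1e6. Levels per kilobase use merged exons or the longest coding transcript of GENCODE M21, in which the 6 members have the same start and end as in the deposited annotation. The ratio of Cyfip2 to Cyfip1 was tested by exact two-sided permutation, of diet within strain and sex and of sex within strain and diet. Its p-values were adjusted by the Benjamini-Hochberg method with scipy 1.17.1. The fitting code was tested on simulated data.

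The members and lists were chosen with earlier results of these data known. Named genes were the 6 members, up to 3 called genes of smallest adjusted p per pathway list and strain contrast, Fndc9, the 4 nearest genes of at least 1 CPM, and the genes of highest and lowest r with Cyfip2 without predicted names. Some genes that the rule selects in other contrasts are not repeated for each. Alternatives were DESeq2 1.42.0 size factors and test, limma 3.58.1 on voom weights and on the variance-stabilized matrix, no filter, the identifier range as a block, only the strains compared, and each library left out.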

Additional observations from a re-analysis of the deposited data

Results flagged for a closer look

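Single libraries stood apart from the rest of their group in 3 of 90 groups of libraries examined for the 6 genes, where chance gives about 1 in 20. The groups share libraries, and the 3 found were groups of 4. Wasf2 was at 70.2 CPM in 1 C57BL/6J male at 10% fat, above the other 3 C57BL/6J libraries on that diet (64.8 to 65.3 CPM). Abi1 was at 12.8 CPM in 1 CAST/EiJ male at 44% fat, below the other 3 CAST/EiJ males (14.3 to 14.5 CPM). Brk1 was at 36.0 CPM in 1 NZO/HlLtJ male at 10% fat, above the other 3 NZO/HlLtJ males (32.7 to 33.2 CPM).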

How the results depend on the processing

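No paired analysis was possible because replicate numbers were given in accession order and pair no libraries. On the variance-stabilized matrix the Cyfip2 difference was smaller, at -5.38 (CAST/EiJ minus C57BL/6J), -3.66 (NZO/HlLtJ minus C57BL/6J) and 1.72 (NZO/HlLtJ minus CAST/EiJ), and the Cyfip2 minus Cyfip1 difference was 2.18 in C57BL/6J, -3.34 in CAST/EiJ and -1.51 in NZO/HlLtJ. With each library left out, Cyfip2 stayed between -7.13 and -7.00, -4.09 and -4.01, and 2.95 and 3.08 in these contrasts. The diet difference of the Cyfip2 to Cyfip1 ratio ran from -0.22 to -0.14. Pathway genes between NZO/HlLtJ and C57BL/6J numbered 6 to 12 higher and 3 to 6 lower. The higher count was 6 or 7 without any 1 of 7 libraries: C57BL/6J males 2 at 10% and 2 at 44% fat, C57BL/6J females 2 on each diet, NZO/HlLtJ female 1 at 10%, female 2 at 44% and male 2 at 44% fat. The lower count was 3 without C57BL/6J females 1 and 2 at 10%, female 1 at 44% or male 1 at 10% fat, or NZO/HlLtJ female 1 at 10%, female 1 at 44% or male 2 at 10% fat. Of the 5 genes most like Cyfip2, 2 remained with a pseudocount of 1 CPM and 3 with a minimum mean of 5 CPM. In these cases the cause was not tested. Strain differences near 0 (Nckap1 in CAST/EiJ, and Wasf2, Abi1 and Brk1 in NZO/HlLtJ, all against C57BL/6J) took either sign with single libraries left out. In the alternatives run, 0 members passed for diet, sex or interaction. In CAST/EiJ, Cyfip2 rested on 55 to 126 counts per library.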

Other observations

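Further genes, chosen after their values were seen, are given as values. The predicted gene Gm12174, 414959 bases from Cyfip2, was at 85.4 ± 7.12 CPM (SD, n = 8) in C57BL/6J, 79.5 ± 6.26 in NZO/HlLtJ and 0.529 ± 0.375 in CAST/EiJ. Its log2 difference in CAST/EiJ against C57BL/6J was -7.62. Gm12166, 141529 bases from Cyfip2, had 92 counts summed over C57BL/6J, 33 over NZO/HlLtJ and 0 over CAST/EiJ. On chromosome 2, Pdss1, which shares 194 exon bases with Abi1 on the opposite strand, was at 10.4 ± 1.02 CPM in C57BL/6J and 16.9 ± 2.09 CPM in CAST/EiJ.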
